A study of Mus musculus with 47 samples.

Results

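Magef1 and Gzmm are 2 genes of mouse embryonic stem cells (ESCs) whose transcript levels were lower in cells taken in G2M than in cells taken in G1. They were picked for that difference from the 26182 genes of the deposited tables of separated cells. Of these, 12462 were abundant enough to test. Both passed that filter, Gzmm only through its level in G1. Because the G1 and G2M levels chose them, the phase difference is given as a description, with no test. The difference between Tdg knock-down and control within a phase was not part of that rule, though it rests on the same libraries. The levels at 48 h, 96 h and day 11, and a separate comparison of phases at 0 h, were not used by the rule.

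The cells were E14Tg2A, a mouse ESC line, kept in serum-free N2B27 medium with PD0325901, CHIR99021 (inhibitors of MEK and of GSK3) and LIF. They had received an siRNA against Tdg (siTdg) or a control siRNA (siC), and all groups derive from that 1 line. The targeted gene, Tdg, encodes a DNA glycosylase that cuts thymine out of mismatches with guanine and takes part in the removal of oxidised methylcytosine. The 20 libraries formed 10 groups of 2: siTdg and siC ESCs in G2M and in G1, siTdg and siC ESCs at 48 h and at 96 h, and siTdg and siC embryoid bodies (EBs), the clumps that ESCs form as they differentiate, at day 11. A further deposited comparison sets cells in S, G2 and M (SG2M) against cells in G1 at 0 h. How phases were separated is not given in the sources used here.

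MAGE proteins share a MAGE homology domain through which they bind E3 ubiquitin ligases and steer them to substrates. In human cells MAGEF1 pairs with the ligase NSE1 and directs the degradation of MMS19, a factor that delivers iron-sulfur clusters to DNA repair and replication enzymes. Granzymes are serine proteases stored in the granules of natural killer (NK) and cytotoxic T cells, which reach target cells through perforin. Granzyme M, encoded by Gzmm, is known from NK cells, and neither gene is among the usual markers of an ESC.

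Recovered reads ranged from 20818174 to 41433232 per library, and 1 read of Magef1 or Gzmm was worth 0.0144 to 0.0394 RPKM. RPKM are reads per kilobase of transcript, here scaled by a size factor of each library in place of its total reads. Magef1 had between 18 and 201 reads in a library and Gzmm between 8 and 107, so counting error alone is wide for both. The siRNA lowered Tdg to 8.59 ± 1.49 RPKM in siTdg G1, against 57.2 ± 3.43 in siC G1, and to 10.5 ± 2.62 in siTdg G2M, against 62.4 ± 0.999 in siC G2M (SD, n = 2 each). At 48 h Tdg averaged 10.3 ± 4.16 RPKM with siTdg and 44.7 ± 1.80 with siC. At 96 h it averaged 34.3 ± 8.55 with siTdg and 40.9 ± 7.24 with siC, and in EBs 40.5 ± 4.51 with siTdg and 36.8 ± 2.39 with siC (SD, n = 2 each). Pluripotency genes such as Pou5f1 and Dppa5a summed to between 3635 and 7755 RPKM in ESC libraries and to between 28.7 and 116 in EB libraries. Whether replicate libraries are separate cultures is not stated, and p-values here cover the spread between libraries, which could be technical alone. In bulk RNA a lower level can mean fewer cells that express a gene or less RNA per cell, and these cannot be told apart.

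Magef1 lies on mouse chromosome 16. RefSeq (GRCm38.p6) lists 1 transcript and no protein for it and calls it a transcribed pseudogene, while its human counterpart is a coding gene. Its reads imply a counted length of 1457 bp. In siTdg cells Magef1 stood at 0.560 and 0.521 RPKM in G2M, against 2.26 and 2.91 RPKM in G1, from 24 and 24 reads in G2M and 89 and 101 reads in G1. In siC cells it stood at 0.515 and 0.518 RPKM in G2M, against 2.63 and 2.53 RPKM in G1, from 19 and 18 reads in G2M and 128 and 131 reads in G1. All 4 libraries of G2M were below all 4 of G1, and the mean in G1 was 4.78 times that in G2M with siTdg and 5.00 times with siC.

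Gzmm lies on mouse chromosome 10, where RefSeq lists 6 transcripts and 5 proteins for it, and its reads imply a counted length of 1404 bp. RefSeq (GRCm38.p6) gives 2 promoters for Gzmm, here the 250 bases before and 50 after each start. The promoter set used here had no entry for Magef1, so only Gzmm could be searched. Capitals mark the 1 match found to the cell-cycle motifs described further on.
Gzmm promoter 1, chr10:79688770-79689069, plus strand: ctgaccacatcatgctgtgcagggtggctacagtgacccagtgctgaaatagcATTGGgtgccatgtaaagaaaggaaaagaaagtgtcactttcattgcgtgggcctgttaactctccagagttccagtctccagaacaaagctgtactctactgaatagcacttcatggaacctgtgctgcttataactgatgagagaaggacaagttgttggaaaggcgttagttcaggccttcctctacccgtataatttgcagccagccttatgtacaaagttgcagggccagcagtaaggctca
Gzmm promoter 2, chr10:79693576-79693875, plus strand: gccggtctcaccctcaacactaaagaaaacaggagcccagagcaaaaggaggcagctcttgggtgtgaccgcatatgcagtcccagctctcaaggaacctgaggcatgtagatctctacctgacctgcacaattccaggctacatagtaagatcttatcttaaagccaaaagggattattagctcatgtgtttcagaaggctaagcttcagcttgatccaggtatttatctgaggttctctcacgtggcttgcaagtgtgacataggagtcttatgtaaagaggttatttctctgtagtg
In siTdg cells Gzmm stood at 0.436 and 0.293 RPKM in G2M, against 1.90 and 1.73 RPKM in G1, from 18 and 13 reads in G2M and 72 and 58 reads in G1. In siC cells it stood at 0.309 and 0.328 RPKM in G2M, against 2.29 and 1.68 RPKM in G1, from 11 and 11 reads in G2M and 107 and 84 reads in G1. Again every G2M library was below every G1 library, and the G1 mean was 4.98 times the G2M mean under siTdg and 6.23 times under siC.

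**Figure D1:**
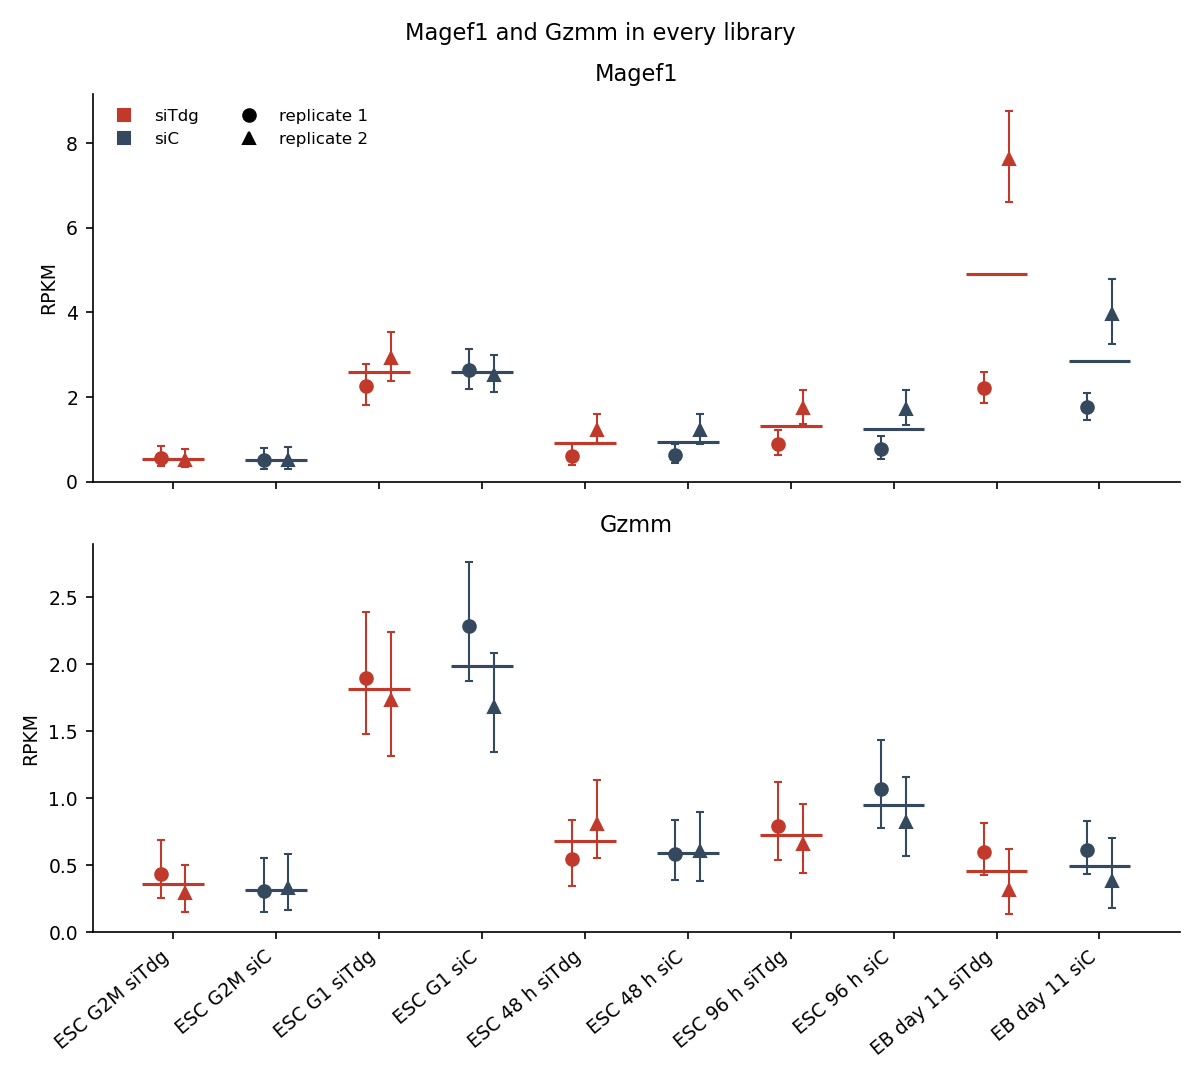
Deposited RPKM of Magef1 (top) and Gzmm (bottom) in each of the 20 libraries, with siTdg in red and siC in dark blue. Circles are replicate 1, triangles replicate 2, vertical bars 95% Poisson intervals of the reads (counting error only) and horizontal lines group means. In both genes the G2M libraries lie under the G1 libraries, and Magef1 reaches 7.62 RPKM in replicate 2 of the siTdg EBs.

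On the scale of log2(RPKM + 0.5), which understates changes of genes this low, Magef1 differed between G2M and G1 by -1.56 under siTdg and by -1.60 under siC (SE 0.14 each). Gzmm differed by -1.43 under siTdg and by -1.59 under siC (SE 0.16 each). In siTdg cells Magef1 ranked as the 3rd and Gzmm as the 6th lowest of the 12462 genes, and in siC cells they ranked 6th and 7th. Genes with still lower values were small RNA genes, whose standard errors ran from 0.22 to 1.08. Of all genes, 0.0241% with siTdg and 0.016% with siC were called lower in G2M, at an adjusted p under 0.05 in limma with Benjamini-Hochberg adjustment. Libraries that did not overlap and were lower in G2M occurred in 13.6% of genes with siTdg and 17.8% with siC. Since this contrast chose both genes, no call of theirs is given and nothing is read from these shares.

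Lists of other phase genes were read in the same contrast. Of 16 G2/M genes, 6 were called higher in G2M with each siRNA, beside 0.144% of all genes with siTdg and 0.104% with siC. Among them was Top2a, the topoisomerase that untangles chromatids, at 1.78 with siTdg. Of the 16, 14 lay above 0 with each siRNA and 2 below. These 2 were Ccnb2, at -0.25 with siTdg and -0.16 with siC, and Cdc20, at -0.24 with each. The median of the list was 0.97 with siTdg and 1.03 with siC, against 0.02 for all genes in each. Of 16 G1/S genes, 15 lay below 0 with each siRNA and none was called in limma. At an unadjusted p under 0.05 in limma were 5 with each siRNA, beside 9.96% of all genes with siTdg and 8.12% with siC. The median of these 16 genes was -0.18 with siTdg and -0.13 with siC. The lowest of them, Ccne2, which encodes the G1/S cyclin E2, had -0.98 with siTdg (adjusted p 0.253) and -1.32 with siC (adjusted p 0.148) in limma.

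**Figure D2:**
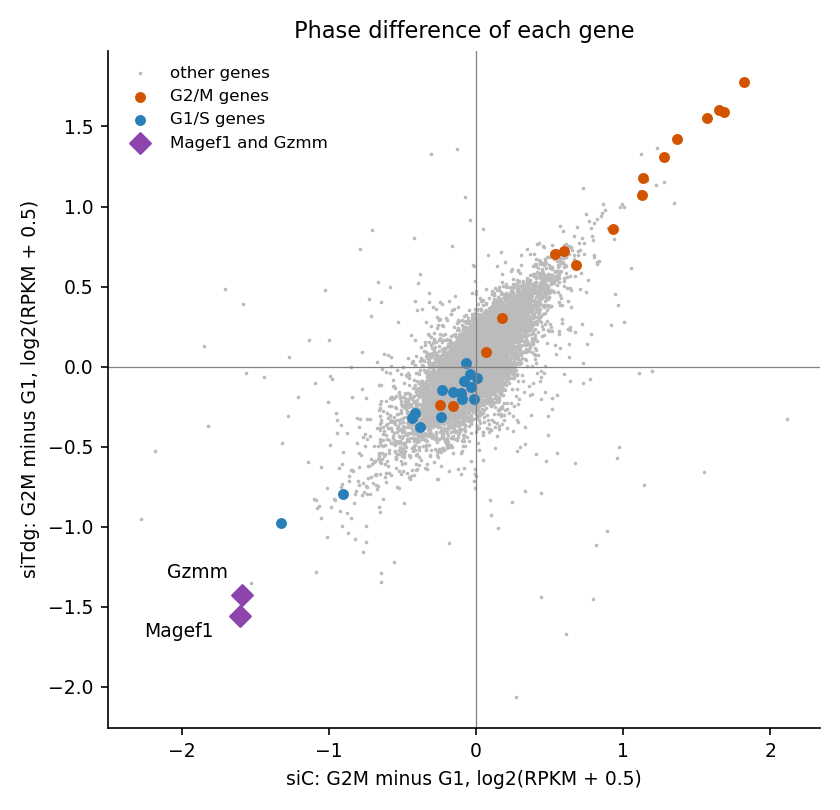
Difference between G2M and G1 of each of 12462 genes on the log2(RPKM + 0.5) scale, with siC on the horizontal axis and siTdg on the vertical axis. Purple diamonds are Magef1 and Gzmm at the lower left, orange points the 16 G2/M genes and blue points the 16 G1/S genes, whose lowest member, Ccne2, is at -0.98 with siTdg and -1.32 with siC.

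The siTdg minus siC difference within a phase was not used to choose the genes, though the same libraries were. It passed the test for neither gene in either phase. In G1, the libraries given above overlap between siTdg and siC for both genes. Magef1 differed by -0.01 (log2, 95% confidence interval -0.33 to 0.31, adjusted p 0.993, limma) and Gzmm by -0.09 (interval -0.47 to 0.29, adjusted p 0.922, limma). In this comparison 1 gene of 12462 was called lower (0.00802%), Tdg itself, and none higher.

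In G2M, Magef1 was at 0.560 and 0.521 RPKM with siTdg and 0.515 and 0.518 RPKM with siC, so that its libraries did not overlap, which held for 14.5% of all genes in that direction. The difference was 0.03 (log2, interval -0.29 to 0.35), and a single Magef1 read was worth about as much RPKM as the gap between the group means. The G2M means of Gzmm, 0.365 RPKM with siTdg and 0.319 with siC, lay under the filter of a mean of 0.5 RPKM. Gzmm passed that filter only through G1. It overlapped between siTdg and siC in G2M and differed by 0.07 (interval -0.31 to 0.45). Adjusted p was 1.00 in limma for each, and 1 gene, again Tdg, was called lower (0.00802%). The siTdg and siC tables of separated cells were scaled separately by the authors, and the median gene differed between them by 0.000815 in G1 and 0.01 in G2M on the log2 scale.

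The phase difference itself was compared between siRNAs with an interaction term. It was 0.04 for Magef1 (SE 0.19, interval -0.41 to 0.49) and 0.17 for Gzmm (SE 0.23, interval -0.37 to 0.70), with an adjusted p of 1.00 each in limma. None of the 12462 genes was called (0%) in limma or limma-voom, and 36 had an unadjusted p under 0.05. The rule used the phase differences under siTdg and under siC, and this term is the difference between them. Choosing genes low in G2M under each siRNA can favour a small term, and the p-values and intervals do not allow for that choice. They therefore cannot show that the Tdg siRNA left the phase difference unchanged. Taken alone, the intervals leave room for a change in the phase difference of either sign up to those bounds.

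In unsorted ESCs both transcripts stood between their G2M and G1 levels, although the tables were scaled separately and this order is a description. At 48 h Magef1 had 0.604 and 1.23 RPKM with siTdg and 0.638 and 1.21 RPKM with siC. At 96 h it had 0.883 and 1.73 RPKM with siTdg and 0.773 and 1.71 RPKM with siC. The siTdg and siC libraries overlapped at both times, and in each group replicate 2 was the higher one.

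Gzmm at 48 h had 0.551 and 0.807 RPKM with siTdg and 0.582 and 0.604 RPKM with siC. At 96 h it had 0.792 and 0.663 RPKM with siTdg and 1.07 and 0.825 RPKM with siC. The 48 h libraries overlapped, and the 96 h libraries did not, with siTdg the lower, as in 4.46% of all genes.

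None of these differences passed the test. By 96 h Tdg itself was little lowered, at 34.3 ± 8.55 RPKM with siTdg and 40.9 ± 7.24 with siC (SD, n = 2 each). The siTdg minus siC difference of Magef1 was -0.02 at 48 h (interval -1.01 to 0.97) and 0.07 at 96 h (interval -0.92 to 1.06). That of Gzmm was 0.10 at 48 h (interval -0.41 to 0.61) and -0.23 at 96 h (interval -0.74 to 0.27), with adjusted p of 1.00 in limma for each of the 4. The change of the siTdg effect between 48 h and 96 h was 0.08 for Magef1 (SE 0.59) and -0.34 for Gzmm (SE 0.30), again with adjusted p 1.00 in limma. The fit has no replicate term, so its intervals include the shift between replicates. Within replicate numbers 1 and 2, siTdg Magef1 was 0.946 and 1.01 times the siC level at 48 h, and 1.14 and 1.01 times at 96 h. For Gzmm these ratios were 0.948 and 1.34 at 48 h, and 0.741 and 0.804 at 96 h. No gene was called at either time (0%), Tdg included, in limma or limma-voom. At an unadjusted p under 0.05 in limma were 54 of 12190 genes at 48 h and 11 at 96 h. The authors' deposited table gives Tdg -2.18 at 48 h (SE 0.43, adjusted p 0.000176). Since limma missed the targeted gene itself, its lack of calls has little weight for Magef1 and Gzmm. The authors' deposited tables give Magef1 -0.03 (SE 0.58) at 48 h and 0.10 (SE 0.48) at 96 h. Gzmm has 0.17 (SE 0.71) at 48 h and -0.38 (SE 0.60) at 96 h there, with no adjusted p for either gene.

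Tdg was not lowered in day 11 EBs, at 40.5 ± 4.51 RPKM with siTdg and 36.8 ± 2.39 with siC (SD, n = 2 each). In these EBs Magef1 and Gzmm parted. Magef1 had 2.21 and 7.62 RPKM with siTdg and 1.76 and 3.97 RPKM with siC, from 149 and 201 reads with siTdg and 122 and 108 reads with siC. Gzmm had 0.599 and 0.315 RPKM with siTdg and 0.612 and 0.381 RPKM with siC, from 39 and 8 reads with siTdg and 41 and 10 reads with siC. Magef1 thus had its highest group means in EBs, while Gzmm was at the low end, near its G2M level, and the siTdg and siC libraries overlapped for both.

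Magef1 was 0.56 higher with siTdg in EBs on the log2 scale (SE 0.71, interval -1.36 to 2.48, adjusted p 1.00, limma), and no gene was called (0%) in limma or limma-voom, with 20 of 13300 at an unadjusted p under 0.05. These fits had no replicate term, although same-numbered EB libraries deviated together (r 0.95), so the interval includes the shift between replicates. With a replicate block the adjusted p of Magef1 was 0.165 in limma, and other genes were called in EBs. The authors' deposited table gives Magef1 0.64 (SE 0.34), with an unadjusted p of 0.0628 and an adjusted p of 1.00. Without replicate 2 of siTdg the difference was -0.23, and without replicate 1 of siTdg it was 1.35. Within replicate numbers, the siTdg level was 1.26 times the siC level in replicate 1 and 1.92 times in replicate 2. Gzmm fell under the filter of a mean of 0.5 RPKM in EBs. Without that filter it differed by -0.07 (SE 0.26, interval -0.78 to 0.64, adjusted p 1.00, limma).

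**Figure D3:**
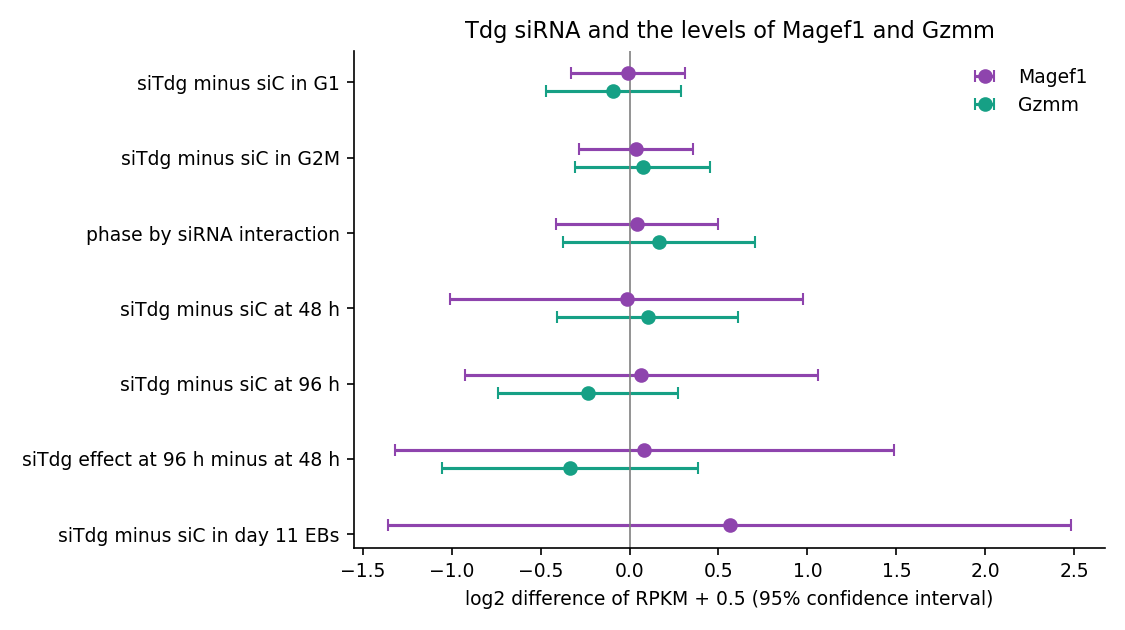
Difference between siTdg and siC in Magef1 (purple) and Gzmm (green) on the log2(RPKM + 0.5) scale, with 95% confidence intervals from limma. Points are siTdg minus siC in each setting and the 2 differences of differences. Tdg itself averaged 34.3 RPKM with siTdg and 40.9 with siC at 96 h, and 40.5 with siTdg and 36.8 with siC in EBs. The fits have no replicate term, so intervals include the shift between replicates. Every interval spans 0, and the widest is that of Magef1 in day 11 EBs, from -1.36 to 2.48. Gzmm fell under the filter there and has no point.

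With settings ordered by their mean RPKM, Magef1 ran 4.91 ± 3.83 in siTdg EBs, 2.86 ± 1.57 in siC EBs, 2.58 ± 0.462 in siTdg G1 and 2.58 ± 0.0738 in siC G1. Below these came 1.31 ± 0.601 in siTdg and 1.24 ± 0.662 in siC at 96 h, 0.915 ± 0.440 in siTdg and 0.926 ± 0.407 in siC at 48 h, 0.541 ± 0.0279 in siTdg G2M and 0.516 ± 0.00239 in siC G2M (SD, n = 2 each). Of neighbours when the 10 groups are ranked singly, siC G1 and siTdg at 96 h differed by more than the larger of their SDs and did not overlap, and the other neighbours did not differ by more than that SD.

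For Gzmm the settings ran 1.82 ± 0.114 in siTdg G1 and 1.98 ± 0.426 in siC G1, then 0.727 ± 0.0916 in siTdg and 0.947 ± 0.173 in siC at 96 h. Next were 0.679 ± 0.181 in siTdg and 0.593 ± 0.0159 in siC at 48 h, 0.457 ± 0.201 in siTdg EBs and 0.497 ± 0.163 in siC EBs, and 0.365 ± 0.101 in siTdg G2M and 0.319 ± 0.0137 in siC G2M (SD, n = 2 each). Neighbours among the ranked groups that differed beyond the larger SD were siTdg G1 over siC at 96 h, and siC over siTdg at 96 h. With reads divided by each library's total in place of the authors' factor, the highest mean stayed with siTdg EBs for Magef1, at 4.55 ± 2.94, and with siC G1 for Gzmm, at 2.04 ± 0.454.

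Replicates moved Magef1 and left Gzmm with no common direction. Magef1 was higher in replicate 2 in 6 of 6 unsorted groups, by 1.90 to 3.45 times, and in 2 of 4 groups of separated cells. Replicate 2 was the higher one in all 6 unsorted groups for 22.7% of genes, and 195 of 11173 (1.75%) had a log2 difference at least as large as the smallest of Magef1, 0.59, in each of the 6. Gzmm was higher in replicate 2 in 2 of 6 unsorted groups and 1 of 4 groups of separated cells.

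EB replicates also differed in the genes that mark their state. Lineage genes such as Col1a1 summed to 2219 RPKM in replicate 1 and 1029 in replicate 2 with siTdg, and to 1777 and 657 with siC. Pluripotency genes summed to 28.7 in replicate 1 and 46.3 in replicate 2 with siTdg, and to 29.3 and 116 with siC. Replicate 2 of the EBs had fewer reads, 20818174 with siTdg and 21775039 with siC, than replicate 1, with 41433232 and 38825128. The part of these differences in the Magef1 levels was not tested. Divided by library totals, the Magef1 ratio of replicate 2 to replicate 1 was 2.68 in siTdg EBs and 1.58 in siC EBs, against 3.45 and 2.26 in deposited RPKM.

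A separate view of the cell cycle comes from the 0 h comparison, whose columns of RPKM match no sample label and were not used. In the authors' deposited table, turned to SG2M minus G1, Magef1 had -0.90 (SE 0.38), with an unadjusted p of 0.0187 and an adjusted p of 0.115. Gzmm had -1.05 (SE 0.54) in the authors' deposited table, with an unadjusted p of 0.0536 and an adjusted p of 0.224. Both were on the low side in SG2M and neither passed the adjusted threshold of 0.05, which 344 of 12790 genes (2.69%) passed as lower and 8.87% as higher.

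The direction of that table was read from G2/M genes, 16 of 16 of which were higher in SG2M in the authors' deposited table, with a median of 1.99. By size of the change, 11.7% of 18933 genes in the authors' deposited table were as low as Magef1 or lower, and 10.4% as low as Gzmm or lower. Ccne2, the lowest of the G1/S genes there, had -0.67 (SE 0.28, adjusted p 0.113) in the authors' deposited table. Of the 16 G1/S genes 9 lay above 0, and 3 rose in SG2M and 0 fell, with a median of 0.02, in the authors' deposited table. SG2M holds S-phase cells that G2M, as named, does not, so sizes are not compared between both kinds of separation.

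The authors' deposited tables for the separated cells, which share their libraries with the values above, give Magef1 -2.25 with siTdg (SE 0.46) and -2.32 with siC (SE 0.46). Gzmm has -2.33 with siTdg (SE 0.55) and -2.63 with siC (SE 0.56) in the authors' deposited tables. These log2 folds are larger than those above, which include the added 0.5 RPKM.

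The MAGE family was counted by phase without Magef1. Of 22 MAGE genes listed, 21 were in the tables of separated cells and 10 besides Magef1 were tested. In limma 0 were called in either direction. At an unadjusted p under 0.05 in limma were 1 with siTdg and 0 with siC, beside 9.96% of all genes with siTdg and 8.12% with siC. The median of the 10 was -0.18 with siTdg and -0.11 with siC, against 0.02 for all genes in each. The next lowest with siC was Ndn, which encodes the growth suppressor necdin, at -0.49 (adjusted p 0.630, limma) and at -0.43 with siTdg (adjusted p 0.570, limma). At 0 h, in the authors' deposited table, 3 of 13 MAGE genes with an adjusted p fell in SG2M and 0 rose, with a median of -0.29, beside 2.69% of all genes lower and a median of 0.02. They were Ndn at -0.89 (SE 0.17, adjusted p 5.71e-06), Magee1 at -1.09 (SE 0.33, adjusted p 0.0139) and Mageh1 at -0.61 (SE 0.21, adjusted p 0.0384) in the authors' deposited table.

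**Figure D4:**
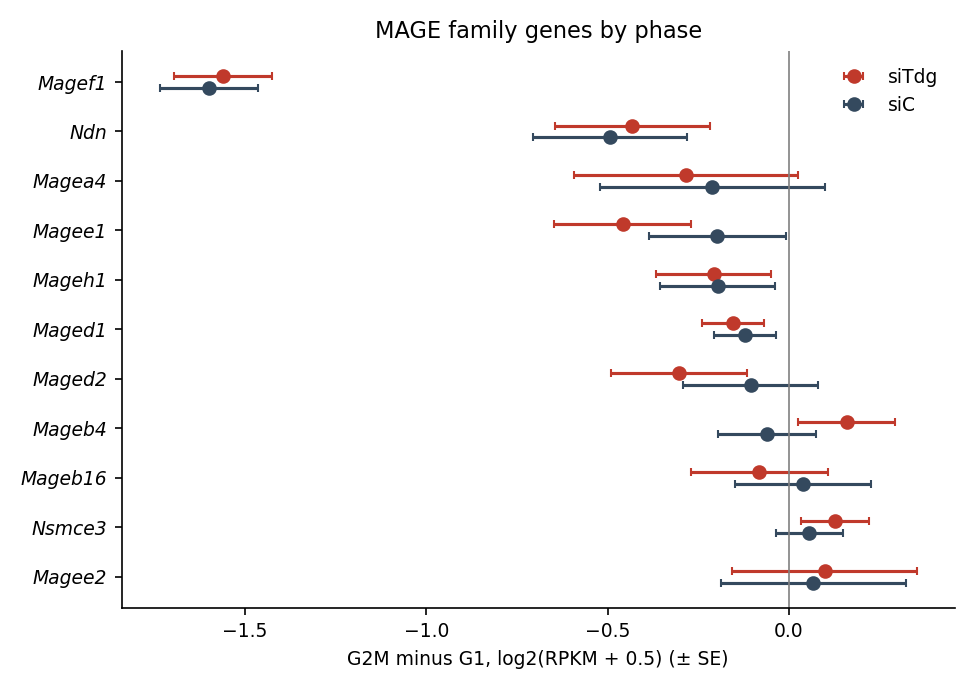
Difference between G2M and G1 on the log2(RPKM + 0.5) scale, with its SE, for Magef1 and the other 10 MAGE genes tested, siTdg in red above siC in dark blue. Magef1 lies at -1.56 with siTdg and -1.60 with siC, and the next lowest are Magee1 at -0.46 with siTdg and Ndn at -0.49 with siC.

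Genes of the partners known from the human protein were read in the same way. Nsmce1, which encodes the ligase NSE1, had -0.00201 with siTdg and 0.15 with siC (SE 0.30 each), and its SMC5/6 complex, which acts in chromosome repair, had 0 of 8 genes called in limma (2 at an unadjusted p under 0.05 with siTdg and 1 with siC). Mms19 had 0.02 with siTdg and 0.04 with siC (SE 0.11 each). Of 16 genes for cytosolic iron-sulfur delivery and its client enzymes, 0 were called in limma (2 at an unadjusted p under 0.05 with each siRNA). Their medians were 0.05 with siTdg and 0.09 with siC. Of all genes, 9.96% with siTdg and 8.12% with siC were at an unadjusted p under 0.05 in limma. At 0 h, in the authors' deposited table, 4 of 8 SMC5/6 genes rose in SG2M and 0 fell, with a median of 0.28, among them Smc6 at 0.37 (SE 0.09, adjusted p 0.000657). Of the 16 iron-sulfur genes, 5 rose in SG2M and 0 fell in the authors' deposited table, with a median of 0.19, among them Pold1, a DNA polymerase delta subunit, at 0.35 (SE 0.09, adjusted p 0.00129), beside 8.87% of all genes higher. In EBs the Magef1 relatives Maged2 and Ndn reached 255 ± 179 and 82.4 ± 9.59 RPKM with siTdg and 273 ± 220 and 84.1 ± 3.23 RPKM with siC (SD, n = 2 each), far above Magef1.

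Among the granzymes and perforin, Gzmm stood alone in having reads throughout the ESC groups. The other 10 genes of its list, the other granzymes and perforin, summed to at most 0.0387 RPKM in any ESC library, and 9 or 10 of the 10 were listed at 0 in both libraries of each ESC group. In EBs they summed to between 0.469 and 0.537 RPKM with siTdg and between 0.0572 and 0.555 with siC, led by Gzme.

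Of 16 lymphocyte and NK markers, the NK receptors Ncr1, Klrk1 and Klrd1 were at 0 in every library. Ptprc, the leukocyte marker CD45, stayed at or under 0.0125 RPKM in ESC libraries but had 0.263 to 0.761 RPKM in EB libraries. Other markers of the list had reads in ESCs. Klrb1c had 0.0159 to 0.126 RPKM in separated cells, and Tbx21 reached 0.990 and Cd4 1.60 RPKM in unsorted ESCs. The list summed to between 3.55 and 4.62 RPKM in siTdg G2M and between 3.99 and 4.01 in siTdg G1, and to between 2.67 and 3.85 in siC G2M and between 2.64 and 3.67 in siC G1. The sums overlapped between phases under each siRNA, Cd2 and Cd3e were the highest of the list, and 0 of 3 tested markers were called by phase in limma, none of them at an unadjusted p under 0.05. In unsorted ESCs the list summed to between 5.84 and 10.5 RPKM and in EBs to between 0.904 and 1.74, where Gzmm was lower than in G1.

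Genes that act on granzymes were measured as well. Ctsc, whose protease cathepsin C trims granzymes to their active form, had -0.07 with siTdg and -0.08 with siC (SE 0.09 each). Serpinb9b, which encodes an inhibitor of mouse granzyme M, had -0.56 with siTdg (SE 0.17, adjusted p 0.373, limma) and -0.66 with siC (SE 0.17, adjusted p 0.368, limma). Neither Serpinb9b value passed the test, and 0 of the 3 tested genes of that list were called in limma. Serpinb9b was the 1 of them at an unadjusted p under 0.05 in limma, beside 9.96% of all genes with siTdg and 8.12% with siC.

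Genomic neighbours of Gzmm were also measured. On the side before it in RefSeq order, Cdc34, a ubiquitin-conjugating enzyme, had -0.10 with siTdg and 0.02 with siC (SE 0.15 each), at 193 RPKM in siTdg G2M against 209 in siTdg G1. Tpgs1, a subunit of a tubulin-modifying complex, had -0.31 with siTdg and -0.20 with siC (SE 0.16 each). On the other side Bsg, the cell-surface protein basigin, had -0.01 with siTdg and 0.08 with siC (SE 0.18 each). At 0 h, in the authors' deposited table, Cdc34 rose in SG2M by 0.34 (SE 0.08, adjusted p 0.000624), while Tpgs1 had -0.35 (SE 0.18, adjusted p 0.198) and Bsg 0.02 (SE 0.08, adjusted p 0.929). Nearest to Magef1 in RefSeq order were Mir7680 and Gm16863 on one side and Gm36224 and Gm36150 on the other, none of which was among the genes tested.

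Across the 8 separated libraries, the genes most like Magef1 were Rpa2 (Pearson r 0.994), Icam1 (0.984), Gzmm (0.984), Dgka (0.982) and Cd24a (0.979), out of 11747 compared on log2(RPKM + 0.5). The genes most like Gzmm were Igfbp3 (r 0.997), Tmem161a (0.992), Rpa2 (0.985), Pip4k2c (0.984) and Slbp (0.984), with Magef1 the 6th. These 8 points are 4 libraries of each phase, so r measures mostly a step between phases and is a description. That step chose both Magef1 and Gzmm, so nothing is read from their high r with each other. Over the other 12 libraries, taken within their tables, Magef1 and Gzmm had r -0.62.

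Likeness in pattern did not mean likeness in size. Rpa2, a subunit of the single-strand binding protein RPA, was at 74.5 RPKM in siTdg G2M against 87.2 in siTdg G1, and at 74.0 in siC G2M against 86.3 in siC G1, a difference of -0.23 with siTdg and -0.22 with siC. Cd24a, a cell-surface glycoprotein, differed by -0.47 with siTdg and -0.65 with siC. Slbp, which binds the histone mRNA stem-loop, differed by -0.29 with siTdg and -0.41 with siC. At 0 h, in the authors' deposited table, Rpa2 had 0.25 (SE 0.09, adjusted p 0.0436), Icam1 -0.23 (SE 0.08, adjusted p 0.0435) and Slbp 0.02 (SE 0.08).

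Both Gzmm promoters were searched on both strands for motifs tied to cell-cycle and p53 control. The CHR element TTTGAA, found in 17.9% of 32851 RefSeq promoters of the same length, was in neither. The CCAAT box, found in 37.4%, occurred once, on the minus strand of promoter 1, where it reads ATTGG in the sequence above and starts 197 bases before the start site. The E2F forms TTTCCCGC, TTTCGCGC, TTTGCCGC and TTTGGCGC, found in 2.26%, and the p53 half-site, found in 8.36%, had no match in either window. G and C made up 47.3% of promoter 1 and 46% of promoter 2, against a median of 52.7% over all.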

How the data were processed

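Of 47 samples, the 20 RNA libraries of ESCs and day 11 EBs were analysed, grouped by sample titles; 8 RNA samples of day 9 EBs and the chromatin and modified DNA samples were not analysed here. Per the labels' protocols, ribosomal RNA was depleted and a kit that marks strand was used. The submitters' processing notes name TopHat, Bowtie, DESeq2, DiffBind and genome build mm9; annotation, counting tool and strand setting are not given there, so reads of overlapping genes cannot be told apart. The authors deposited RPKM, in 5 tables of 4 libraries, each with a scale of its own. The authors also deposited log2 fold changes with standard errors, p-values and adjusted p-values and, as signal per gene, mean normalised counts, per the file headers. Their changes ran G1 minus SG2M (0 h) and siC minus siTdg (48 h, 96 h) and are turned here. The 4 RPKM columns of 0 h fit no sample title and stayed out.

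Reads were recovered from RPKM, that signal and each library's size factor; 100% of values up to 2000 reads came out whole within 0.01 reads. Gene lengths were the same within 0.1% in the siTdg and siC tables of separated cells for 19249 of 19249 genes, which allowed tests across these 2. Poisson intervals (95%) cover counting error only. The deposited data hold no counts as such, so the main test was limma 3.58.1 (R 4.3.3, eBayes with a trend) on log2(RPKM + 0.5), leaving out genes that averaged under 0.5 RPKM, with Benjamini-Hochberg adjustment over all genes tested, two-sided, called at an adjusted p under 0.05. One model held the separated ESCs, one the ESCs of 48 h and 96 h, one the EBs, with no replicate term. The fit was checked on simulated data that had no shift shared by same-numbered libraries. That check therefore does not cover such a shift. Genes of like pattern were the 5 of highest Pearson r over separated libraries. Promoters came from RefSeq (GRCm38.p6). Alternatives were other pseudocounts, no filter, quantile normalisation, limma-voom on recovered reads, only the groups compared, a replicate block and each library left out; scaling by library totals was added after seeing the data. Magef1, Gzmm and the gene lists were chosen with earlier results of these data known.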

Additional observations from a re-analysis of the deposited data

How the results depend on the processing

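The siTdg effects on Magef1 and Gzmm stayed without a call under each alternative run, and the lowest adjusted p outside the leave-one-out fits was 0.165, for Magef1 in EBs with a replicate block (unadjusted p 0.0032, limma). With pseudocounts of 0.1 and 1 RPKM the G2M minus G1 difference of Magef1 was -2.06 and -1.21 with siTdg and -2.12 and -1.24 with siC, and that of Gzmm -2.06 and -1.05 with siTdg and -2.30 and -1.17 with siC. In limma-voom it was -2.23 with siTdg and -2.29 with siC for Magef1 and -2.32 with siTdg and -2.57 with siC for Gzmm, and quantile normalisation gave -1.52 for Magef1 with siC. Signs of siTdg effects near 0 turned under quantile normalisation, in G2M to -0.0411 for Magef1 and -0.0462 for Gzmm and in the interaction to -0.0392 for Magef1, and in limma-voom at 48 h to 0.00344 for Magef1. The cause was not tested.

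Leaving out 1 library at a time gave ranges for Magef1 of -1.71 to -1.41 (siTdg phases), -1.63 to -1.58 (siC phases), -0.16 to 0.15 (siTdg in G1), 0.00675 to 0.0614 (in G2M), -0.11 to 0.19 (interaction), -0.34 to 0.31 (48 h), -0.33 to 0.47 (96 h), -0.31 to 0.48 (96 h minus 48 h) and -0.23 to 1.35 (EBs). For Gzmm they were -1.55 to -1.31, -1.77 to -1.42, -0.27 to 0.0834, -0.0463 to 0.19, -0.0099 to 0.34, -0.056 to 0.26, -0.36 to -0.11 and -0.49 to -0.18 in the same order up to 96 h minus 48 h; in EBs Gzmm had no value outside the fit without a filter. Genes called numbered 21 for siTdg phases and 15 for siC phases, and 0 to 8 and 0 with a library left out, where an arm of 1 is assumed to vary like the others. With only the groups compared they were 0 for siTdg phases, 3 for siC phases, 0 for siTdg in G1 and 0 in G2M. With no filter they were 6 for siTdg in G1, 4 in G2M, 7 for the interaction, 4 at 96 h and 4 for 96 h minus 48 h. Leaving out a library gave 0 in G1, 0 to 1 in G2M and 0 to 1 in EBs.

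Labels do not say that replicate numbers pair libraries, yet same-numbered libraries deviated together (r 0.53 to 0.95). A replicate block raised the calls to 985 for siTdg phases, 614 for siC phases, 2 for siTdg in G1, 3 in G2M and 150 in EBs, and called neither gene for a siTdg effect. Scaling by library totals, added after seeing the data, moved the Magef1 replicate ratio to 2.68 in siTdg EBs and 1.58 in siC EBs. With 8 to 201 reads per library, depth limits small changes of both genes.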
